A study of Mus musculus with 12 samples.

Results

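The genes of the major histocompatibility complex (MHC) and the interferon-induced genes were followed in heart muscle of diabetic mice treated or not with pargyline, an inhibitor of monoamine oxidase. Members were taken by gene symbol: the H2 genes, B2m, Tap1 and Tap2 as MHC genes, and the Ifi, Ifit, Ifitm, Isg, Oas and Gbp families and the Irf and interferon-activated Stat genes as interferon-induced genes. The rule gave 104 genes on 166 probes, out of 26651 named genes and 56605 probes on the array. Of these, 45 were MHC genes and 59 interferon-induced genes. Signal was sufficient for a test in 81 of the 104 genes, 31 MHC and 50 interferon-induced, and the other 23 are named further on. All mice were male C57BL6/J, labelled as 5 months old. The control group (C) and the control group with pargyline (C + P) had no streptozotocin, a toxin of the insulin-producing beta cells. The diabetic group (D) and the diabetic group with pargyline (D + P) received streptozotocin at 50 mg/kg per day for 5 days and counted as diabetic from a blood glucose of 17 mM. C + P and D + P received pargyline at 50 mg/kg per day for 12 weeks. Each group held 3 mice, with 1 array per mouse. Mice of C and D received vehicle in place of pargyline. The model is a chemical loss of beta cells, and the labels name no transgene.

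Class I molecules, made of a heavy chain and beta-2 microglobulin, present peptides from inside the cell to CD8 T cells. Their peptides are carried into the endoplasmic reticulum by the transporter made of Tap1 and Tap2. Class II molecules are made mainly by macrophages, dendritic cells and B cells. Interferons bind receptors whose signal reaches the nucleus through factors that bind interferon-stimulated response elements (ISREs), Irf9 among them, or gamma-activated sites (GAS). The induced genes restrict viruses and raise antigen presentation, and in the heart they are best known from viral and inflammatory disease.

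The values are log2 signal after quantile normalisation, and a difference of 1 is a doubling. Between 23556 and 29231 of 59305 spots per array were well above background, fewest on D replicate 1, and no spot was saturated. The 7 cardiomyocyte markers, Myh6 and Tnnt2 among them, were well above background on all 12 arrays. C and D arrays lay on 1 slide and C + P and D + P arrays on the other, so pargyline and slide cannot be told apart in C + P versus C and in D + P versus D. Diabetic mice occupied row 2 of each slide and nondiabetic mice row 1, so diabetes and row cannot be told apart either. Tissue RNA was measured in bulk, so fewer cells of a type and less RNA per cell cannot be told apart. The level of leukocyte markers was lower on every diabetic array than on every nondiabetic one. The mean of the 3 leukocyte markers, each centred on its mean over all arrays, ranged from 0.05 to 0.33 in C and from -0.24 to -0.18 in D. It ranged from 0.09 to 0.34 in C + P and from -0.36 to -0.08 in D + P. All 8 tested macrophage markers were lower in D versus C, with a median difference of -0.36, and all 8 in D + P versus C + P, with a median of -0.53. None of these markers passed an adjusted p of 0.05 in limma, and their part in the results that follow was not tested. Of the T and NK cell markers 4 of 6 were tested, and Cd3e and Cd4 were well above background on all 12 arrays but Cd8a and Nkg7 on none. Of the B cell markers 3 of 4 were tested, with Cd79a on no array, and of the dendritic cell markers 2 of 5, with Batf3 on no array. Median differences of the tested T and NK cell, B cell and dendritic cell markers were -0.07, 0.25 and 0.02 in D versus C and 0.08, 0.87 and 0.31 in D + P versus C + P.

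Promoter sequences were searched for the ISRE core and the GAS, to which factors of the interferon response bind. Whether a match responds to interferon was not tested. RefSeq windows of 300 bases, from 250 before to 50 after the start of transcription, were found for 75 of the 104 genes (87 windows, build GRCm38.p6). The ISRE core searched was GAAA, 2 bases of any kind and GAAA again, and the GAS was TTCNNNGAA with N any base. Both were searched on both strands, overlapping matches were counted, and no other motif was searched. An ISRE core occurred in 18 of the 52 windows of interferon-induced genes (34.6%), in 3 of the 35 windows of MHC genes (8.57%) and in 1131 of all 32851 windows (3.44%). A GAS occurred in 12 of the interferon-induced windows (23.1%), in 3 of the MHC windows (8.57%) and in 2726 of all windows (8.30%). Both motifs were found in 5 member genes. The windows of Irf7, H2-K1 and Tap1 held no match to these letters. Tap2 and Gbp11 were among the 29 genes with no window in the table.

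The stretches below, each 80 bases and wholly before the start of transcription, hold ISRE cores in capitals and are printed 5′ to 3′ on the strand of the gene. They were chosen to show 1 and several copies of the core and both gene lists.
B2m, chr2:122147513-122147592, plus strand: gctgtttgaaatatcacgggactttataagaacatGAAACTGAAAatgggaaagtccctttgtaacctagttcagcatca
H2-T22, chr17:36042889-36042968, minus strand: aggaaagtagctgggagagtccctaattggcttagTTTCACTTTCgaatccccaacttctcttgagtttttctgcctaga
Ifit3, chr19:34583372-34583451, plus strand: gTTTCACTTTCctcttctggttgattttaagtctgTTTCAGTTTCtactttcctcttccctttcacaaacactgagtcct
Ifit3b, chr19:34607768-34607847, plus strand: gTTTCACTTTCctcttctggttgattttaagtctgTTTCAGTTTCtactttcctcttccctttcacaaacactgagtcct
Isg15, chr4:156200840-156200919, minus strand: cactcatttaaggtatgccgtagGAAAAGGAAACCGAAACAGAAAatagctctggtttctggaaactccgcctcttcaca
Oas1a, chr5:120907526-120907605, minus strand: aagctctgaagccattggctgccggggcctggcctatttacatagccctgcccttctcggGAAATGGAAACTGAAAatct
Gbp3, chr3:142559964-142560043, plus strand: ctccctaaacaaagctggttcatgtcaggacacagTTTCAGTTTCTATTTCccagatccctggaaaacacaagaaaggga
The stretches of Ifit3 and its neighbouring paralog Ifit3b differed at 0 of 80 bases. Isg15 held 3 overlapping cores, and Oas1a and Gbp3 held 2 each. Irf1, which interferon gamma is known to induce, held a GAS instead, in capitals here.
Irf1, chr11:53769889-53769968, plus strand: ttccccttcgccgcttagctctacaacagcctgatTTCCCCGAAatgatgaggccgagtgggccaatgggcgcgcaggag

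**Figure D1:**
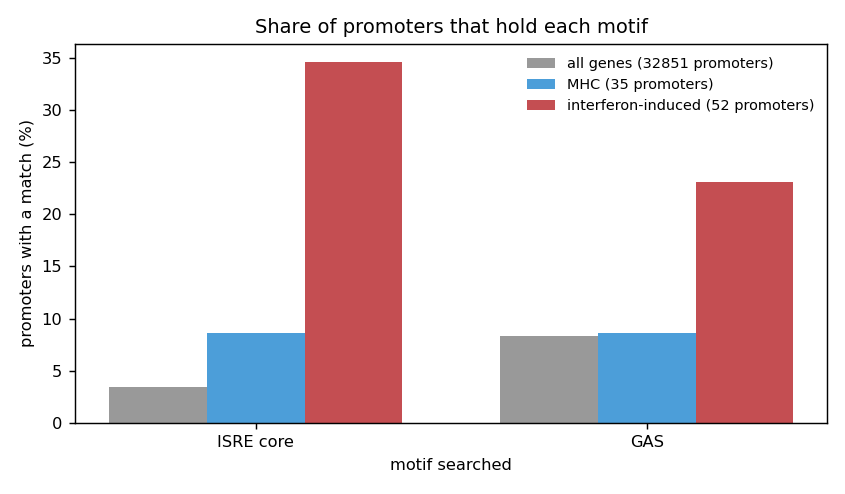
Share of RefSeq promoter windows of 300 bases that hold at least 1 match, in percent (bars start at 0), for all genes, MHC genes and interferon-induced genes. The ISRE core was found in 34.6% of the interferon-induced windows and 3.44% of all windows, with MHC windows at 8.57%.

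Class I heavy chains are alike in sequence, and the probes bear names from several mouse haplotypes. H2-L, for example, is not carried by the haplotype of this strain, so the probe name does not tell which class I transcript it reads. Among the 115 tested member probes, 1 pair of different genes lined up without gaps over 40 or more bases at 85% identity or higher. Probes were compared with each other and not with transcripts, so this count does not measure how many probes read a second gene. The H2-L and H2-T23 probes differed at 6 of 54 aligned bases, and the 30-base stretches with the most differences are shown with the differing bases in capitals.
H2-L: GCcatcAttggagctgtggtggcttttgtg
H2-T23: ATcatcCttggagctgtggtggcttttgtg

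No member passed an adjusted p of 0.05 in any of the 6 comparisons with limma, on 1 probe per gene. Of all 30859 tested probes, 0.00648% passed in D versus C, 0.0454% in D + P versus C + P, 0.107% in diabetes averaged over pargyline, 0.0324% in C + P versus C, 0% in D + P versus D and 0.00648% in the interaction. The methods' t-test also called 0 members in the 4 comparisons of 2 groups. It was used here with Benjamini-Hochberg adjustment in place of the Bonferroni correction that the paper names. What follows is therefore given as values, with counts of members whose groups did not overlap and of members at an unadjusted p under 0.05 read against the same counts over all 16315 tested genes.

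In D versus C, 26 of 31 MHC genes and 36 of 50 interferon-induced genes were lower in D, with median differences of -0.22 and -0.13 against 0.00 over all genes. Of the MHC genes 3 lay without overlap below C and 0 above, while 10.6% of all genes lay below and 12.8% above. Of the interferon-induced genes 4 lay below, Irf9, Gbp11 and Oas2 among them, and 1, Oas1d, above. At an unadjusted p under 0.05, 4 MHC genes and 5 interferon-induced genes were lower and 0 of either were higher, against 4.86% of all genes lower and 5.33% higher. C replicate 1 had the highest mean level of the MHC genes (0.40 above the mean of each gene over all arrays) and D replicate 1 the lowest (-0.46). Without both arrays, an alternative chosen after seeing the data, the medians were -0.01 and 0.04, and 16 of 31 MHC genes and 24 of 50 interferon-induced genes were lower. With 1 array left out, the MHC median ranged from -0.34 without C replicate 3 to -0.06 without C replicate 1, and the interferon-induced median from -0.26 without C replicate 3 to -0.05 without D replicate 1. The sign turned with at least 1 array left out for 15 of the 31 MHC genes and 20 of the 50 interferon-induced genes, and in D + P versus C + P for 11 and 20.

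In D + P versus C + P 21 of 31 MHC genes were higher in the diabetic group, with a median of 0.14 (0.09 without C + P replicate 1, 0.25 without C + P replicate 2). Without overlap 11 lay above C + P, against 7.23% of all genes: H2-D1, H2-L, H2-M2, H2-M11, H2-Q7, H2-Q8, H2-T9, H2-T22, H2-T23, Tap2 and H2-Ke6. H2-DMb2 was the 1 MHC gene below, against 7.08% of all genes. H2-M11 and H2-DMb2 were not well above background on any array of either group, so their order carries no measured difference. There were 2 MHC genes higher (3.7% of all genes) and 0 lower (4.16%) at an unadjusted p under 0.05. The interferon-induced genes had a median of -0.05 (0.02 without D + P replicate 2), with 7 above and 5 below without overlap, and 4 higher and 1 lower at an unadjusted p under 0.05. Those above were Irf1, Irf7, Ifit2, Ifit3, Ifit3b, Ifi47 and Oasl1, and those below Irf5, Isg20, Oas1a, Oas1f and Ifi205. D versus C and D + P versus C + P share no arrays, and no member lay without overlap in both, on either side.

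Averaged over pargyline, the medians for diabetes were -0.10 for both lists, and that of the MHC genes was -0.01 without D replicate 1 and -0.18 without C replicate 3. At an unadjusted p under 0.05, 1 MHC gene was higher and 0 lower, and 2 interferon-induced genes were higher and 4 lower, against 6.15% of all genes higher and 5.53% lower. No member lay without overlap on the same side both with and without pargyline, against 1.36% of all genes above and 1.58% below. In C + P versus C the MHC median was -0.23 and that of the interferon-induced genes 0.08. The first was -0.08 without C replicate 1 and -0.37 without C replicate 3, and the second was -0.09 without C replicate 3. Without overlap, 1 MHC gene lay above and 5 below, and 1 interferon-induced gene above and 4 below, against 8.09% of all genes above and 8.41% below. At an unadjusted p under 0.05, 1 MHC gene was higher and 2 lower, and 1 interferon-induced gene was higher and 1 lower, against 2.04% of all genes higher and 2.34% lower. In D + P versus D the medians were 0.22 and 0.18, and the first was 0.09 without D replicate 1. Here 6 MHC genes lay above and 0 below, and 6 interferon-induced genes above and 3 below, against 7.15% and 9.74%. At an unadjusted p under 0.05, 2 MHC genes and 7 interferon-induced genes were higher in D + P than in D, against 5.58% of all genes, and 0 and 4 were lower, against 6.47%. The comparisons that share a group (C in the first pair, D in the second) are not independent of each other.

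The interaction asks whether the difference between D and C changes with pargyline. It was above 0 for 28 of 31 MHC genes, with a median of 0.52, and for 30 of 50 interferon-induced genes, with a median of 0.14, while 48.0% of all genes were above 0. At an unadjusted p under 0.05, 3 MHC genes and 5 interferon-induced genes were above 0, against 3.3% of all genes above 0 and 2.92% below, and 1 interferon-induced gene, Irf2, was below 0. Over single arrays left out, the MHC median ranged from 0.32 without C replicate 1 to 0.67 without C replicate 3, and was 0.20 with 22 of 31 genes above 0 when C replicate 1 and D replicate 1 were both left out. The interferon-induced median ranged from 0.06 without C replicate 2 to 0.23 without D replicate 3. The MHC list holds paralogs with similar sequences on 1 chromosome, so its genes are not independent.

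**Figure D2:**
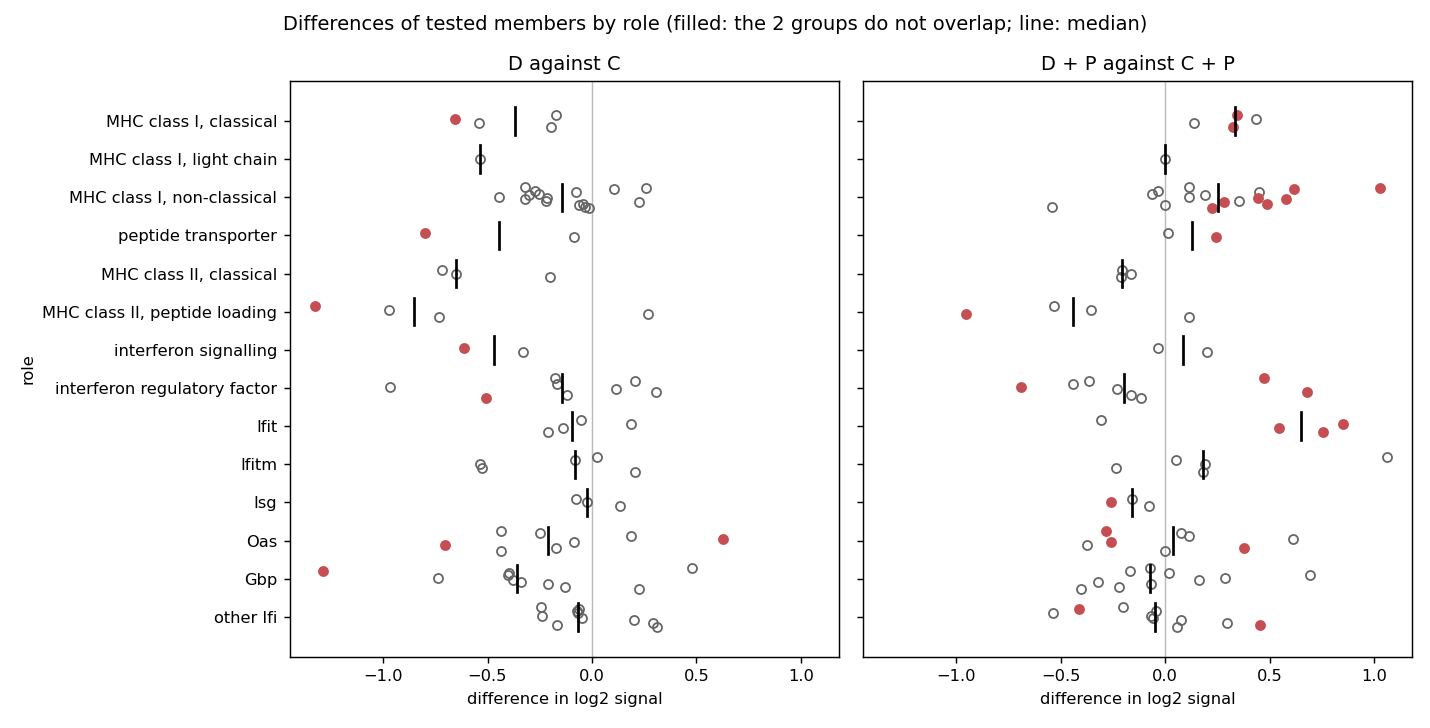
Difference in log2 signal of each tested member, 1 probe per gene, by role, for D versus C (left) and D + P versus C + P (right). Filled points mark genes whose 3 arrays per group do not overlap, and black lines are medians. The 4 genes named after the classical K, D and L loci of class I have a median of -0.37 on the left (-0.20 without C replicate 1). On the right their median is 0.34 (0.15 without C + P replicate 1). H2-L, which is among them, is not carried by the haplotype of this strain. The classical class II genes lie below 0 on both sides.

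The 4 genes named after the classical K, D and L loci were all tested, and the mean of all 4 was lower in D than in C and higher in D + P mice than in C + P mice. Without C replicate 1 the difference in D versus C was 0.03 for H2-D1 and 0.01 for H2-L in place of -0.17 and -0.20, so that 2 of the 4 were higher in D, and the other tested probe of H2-L gave 0.02. H2-K1, a main peptide-presenting heavy chain of this strain (probe at chr17:34133055-34133114, mm9), read 14.07, 13.64 and 13.46 in C and 12.34, 13.50 and 13.26 in C + P. It read 12.69, 13.45 and 13.07 in D and 13.50, 13.41 and 13.51 in D + P. On this probe all D arrays lay below all C arrays, although D replicate 2 and C replicate 3 differed by little. The D + P arrays lay close together within the range of the other groups. H2-K1 was 0.66 lower in D than in C (SE 0.30, limma adjusted p 0.465), and its interaction was 1.09 (SE 0.43, adjusted p 0.692). Its other tested probe gave -0.25 and 0.74, and on that probe D and C overlapped. In D + P versus C + P H2-K1 differed by 0.44, by 0.09 without C + P replicate 1, and by 0.49 on its other probe. H2-D1, the other classical heavy chain of the strain, read 12.14, 12.15 and 12.36 in D + P against 11.59, 12.07 and 11.96 in C + P, without overlap. B2m, the light chain shared by class I molecules, read 13.59, 13.19 and 12.84 in C and 12.43, 12.87 and 12.72 in D. It was highest on C replicate 1, overlapped between D and C, and differed by -0.54 in D versus C (-0.34 without C replicate 1) and by 0.00 in D + P versus C + P. Its other tested probe differed by -1.15 and -0.64.

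The non-classical class I genes of the Q, T and M regions, which encode heavy chains with more limited variation, were tested in 16 of 27. In D + P versus C + P 12 of 16 were higher, 7 of them without overlap, against 7.23% of all genes, and 0 lay below without overlap, against 7.08%. H2-M11, below background in both groups, is 1 of the 7. H2-Q8 (probe at chr17:35565247-35565306, mm9) read 10.05, 10.52 and 10.001 in C + P and 10.81, 10.71 and 10.79 in D + P. In C it read 11.19, 10.48 and 10.14, and in D 10.05, 10.53 and 10.27. The D + P arrays lay above all C + P and D arrays, and C replicate 1 lay above them. H2-Q8 was 0.58 higher in D + P mice than in C + P mice (SE 0.26, limma adjusted p 0.666). H2-Q7, which encodes Qa-2 antigen, read 12.26, 11.97 and 11.94 in D + P and 11.19, 11.66 and 11.40 in D, a difference of 0.64 (SE 0.20, adjusted p 0.246). Its D + P arrays were the highest of the 12, and its 3 tested probes gave the same direction in every comparison. H2-M2 read 10.28, 10.06 and 10.19 in D + P and 9.40, 9.75 and 9.53 in C + P, a difference of 0.62 (SE 0.18, adjusted p 0.426). H2-T23, which encodes Qa-1 and binds NK cell receptors, was 0.49 higher in D + P mice than in C + P mice without overlap (0.30 without C + P replicate 1, and 0.09 on its other tested probe), and H2-M3, which binds formylated peptides, differed by -0.03. H2-Q4 ranged from 13.60 to 15.38, and both ends were D arrays. H2-M11 was well above background on 5 arrays, 3 of them C arrays and none of them C + P, and was at least 1.27-fold brighter in C than in C + P (adjusted p 1.00).

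Of the peptide transporter genes, Tap1 (probe at chr17:34334022-34334081, mm9) read 8.57, 8.53 and 8.34 in C, 8.27, 8.38 and 8.46 in C + P, 6.89, 8.12 and 8.03 in D and 8.68, 8.27 and 8.21 in D + P. All D arrays lay below the 9 others, D replicate 1 by far. Tap1 was 0.80 lower in D than in C (SE 0.29, limma adjusted p 0.396) and 0.71 higher in D + P than in D (SE 0.29, adjusted p 0.330). With C replicate 1 and D replicate 1 left out these differences were -0.36 and 0.31. Tap2 differed by -0.08 in D versus C and by 0.25, without overlap, in D + P versus C + P.

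Of the classical class II chains 3 of 5 were tested, and their differences were below 0 in D versus C, D + P versus C + P, C + P versus C and D + P versus D. In C + P versus C all 3 stayed below 0 with any of the 6 arrays left out, while in each of the other 3 comparisons the sign of at least 1 gene turned. H2-Ab1, the beta chain of the I-A molecule, read 12.44, 11.77 and 11.65 in C, 11.63, 11.50 and 11.05 in C + P, 10.73, 11.51 and 11.67 in D and 11.21, 11.08 and 11.42 in D + P. C replicate 1 was highest and D replicate 1 lowest, and D and C overlapped. H2-Aa, its alpha chain, differed by -0.72 in D versus C, with 4.76 on D replicate 1 against 7.16 on both other D arrays, and by 0.08 without that array. H2-Eb1, the beta chain of I-E, differed by -0.20. The macrophage and leukocyte markers had median differences of -0.36 and -0.45 in D versus C. In C + P versus C, where the classical class II median was -0.56 (-0.30 without C replicate 1), theirs were 0.08 and 0.15. Of the genes that load class II peptides, H2-DMa was well above background on 2 C arrays and no D array, and was at least 1.04-fold brighter in C than in D (limma adjusted p 0.462). H2-DMb1 differed by -0.97 in D versus C, with 5.88 on D replicate 1 against 7.53 and 8.05 on the other D arrays. H2-DMb2 and H2-Ob were well above background on no array, and no fold is given for them although H2-DMb2 had an unadjusted p under 0.05 in C + P versus C. H2-Ke6, a metabolic enzyme gene named after its place in the MHC region, differed by 0.08 in D versus C and by 0.32 in D + P versus C + P.

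**Figure D3:**
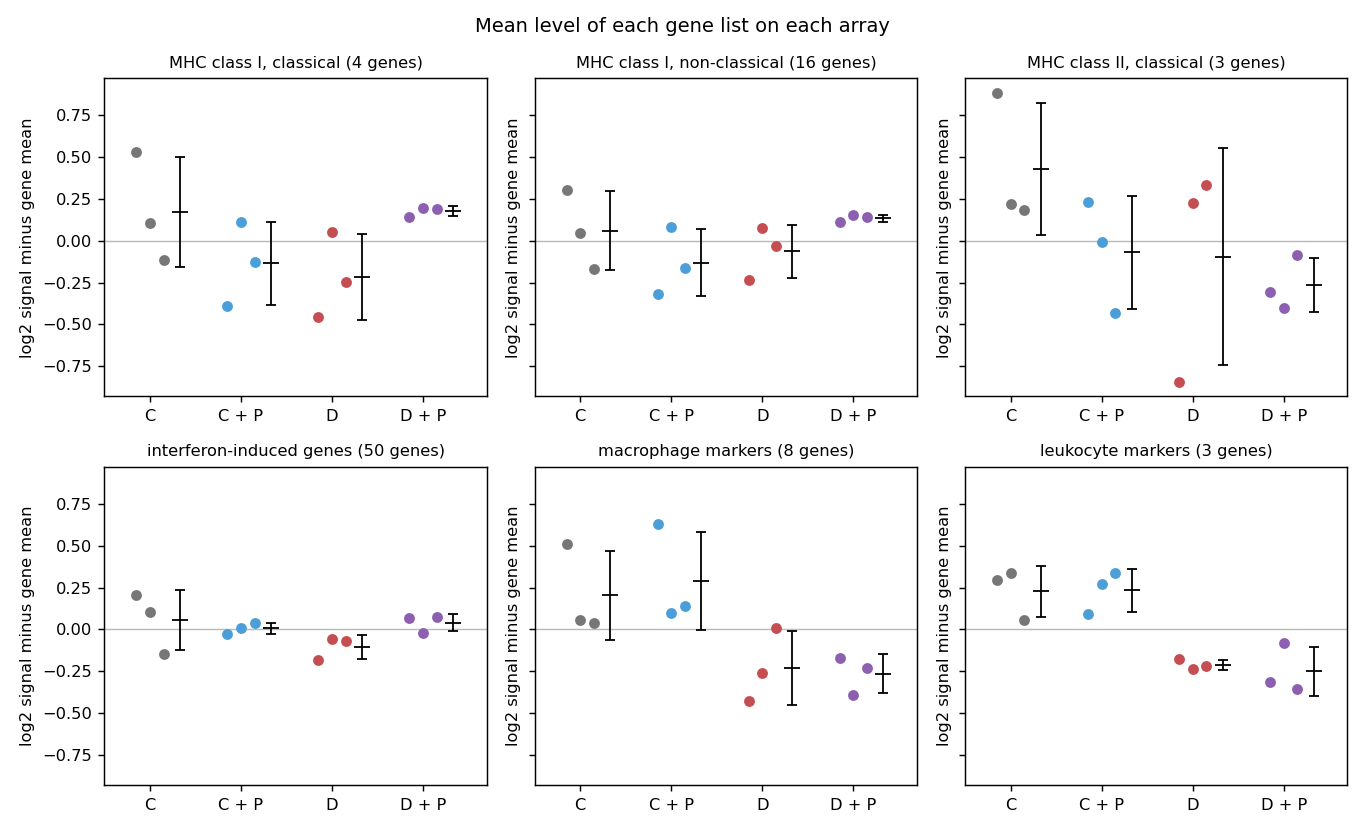
Mean level of each gene list on each array, as log2 signal minus the mean of each gene over the 12 arrays, with points for arrays and bars for mean ± SD of 3. The D + P arrays lie close together for class I, C replicate 1 is high and D replicate 1 low for class II, and both leukocyte panels are lower in D and D + P.

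Stat2, a factor of the response to type I interferon, read 9.34, 9.35 and 8.96 in C and 9.17, 8.85 and 8.64 in D, with overlap. It differed by -0.33 in D versus C, by 0.23 in D + P versus D and by 0.20 in D + P versus C + P (-0.06 without C + P replicate 1), without a gap between groups.

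Of the interferon regulatory factors, which bind ISREs or related elements, 8 of 9 were tested, with 3 higher and 5 lower in D versus C. Irf9, the partner of Stat2 in binding ISREs, read 9.69, 9.62 and 9.32 in C and 8.75, 9.31 and 9.05 in D. The groups did not overlap, by a narrow margin between C replicate 3 and D replicate 2, and Irf9 was 0.51 lower in D (SE 0.18, limma adjusted p 0.377). Irf7, which amplifies type I interferon production (probe at chr7:148449104-148449163, mm9), read 10.60, 10.33 and 10.02 in C, 10.34, 10.40 and 10.56 in C + P, 10.52, 10.81 and 10.54 in D and 11.07, 11.26 and 11.01 in D + P. The D + P arrays lay above all 9 others. Irf7 was 0.68 higher in D + P mice than in C + P mice (SE 0.18, adjusted p 0.359) and 0.49 higher than in D. Its second tested probe gave 0.99 and 0.09 for these differences. Irf1 was 0.47 higher in D + P mice than in C + P mice without overlap, with -0.05 on its other probe. Its C + P arrays read 10.25, 10.74 and 10.79, lowest on replicate 1, and its D + P arrays 11.09, 11.16 and 10.96. Irf3 differed by -0.44 with 9.75 on D + P replicate 3 against 11.76 and 11.74 on the others (0.22 without that array), and Irf8, a factor of myeloid cells, differed by -0.16. Irf2, which competes with Irf1 for the same elements, was 0.45 lower in D + P than in D (SE 0.18, adjusted p 0.323) without overlap, but its other tested probe was 0.93 higher. Irf5 was 0.69 lower in D + P mice than in C + P mice without overlap and was well above background on 8 arrays, and its other probe differed by 0.12.

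The Ifit genes, which bind viral RNA, were higher in D + P mice than in C + P mice for 3 of 4, all without overlap, against 7.23% of all genes above. Ifit2 read 5.98, 7.04 and 6.59 in C + P and 7.46, 7.29 and 7.42 in D + P, a difference of 0.85 (SE 0.30, limma adjusted p 0.557). Ifit3 read 8.51, 8.47 and 8.51 in C + P and 9.38, 8.70 and 9.04 in D + P, a difference of 0.54 (SE 0.22, adjusted p 0.627). In D versus C they differed by 0.19 and -0.14, with overlap. Ifit3b, whose printed promoter stretch equals that of Ifit3, differed by 0.76 in D + P versus C + P and by -0.21 in D versus C (0.25 without D replicate 1), while Ifit1 differed by -0.31 and -0.05. Ifit1 read 7.66, 6.86 and 7.12 in C + P, highest on replicate 1, and 6.65, 6.98 and 7.09 in D + P, with overlap.

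Isg15, the ubiquitin-like modifier whose promoter carries 3 cores, ranged from 9.49 to 10.48 over the 12 arrays and differed by -0.07 in D versus C and by -0.16 in D + P versus C + P. The 95% interval in D versus C was -0.61 to 0.46. Ifitm3, a membrane protein that blocks viral entry, differed by -0.53 in D versus C, with 10.16 on D replicate 1 and 11.71 and 11.69 on the others, and by -0.02 without that array. Ifitm1 was 1.06 higher in D + P mice than in C + P mice (SE 0.41, limma adjusted p 0.619), with overlap. The 2-5 oligoadenylate synthetase family includes enzymes that act through RNase L. Of its genes, Oas1a differed by -0.44 in D versus C and by -0.28, without overlap, in D + P versus C + P. Oas2 was 0.71 lower in D than in C without overlap, and Oasl2 differed by -0.44 with overlap, and by -0.11 without D replicate 1. Oasl1, which restrains Irf7 translation, read 8.34, 7.84 and 8.14 in D + P and 7.03, 7.76 and 7.62 in D, a difference of 0.64 (SE 0.22, adjusted p 0.270) without overlap, while its other probe differed by -0.08. On the first probe the difference ranged from 0.37 to 0.78 over the alternatives tried.

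The guanylate-binding proteins are GTPases that interferon gamma induces strongly, and 10 of 11 were tested. In D versus C 8 of 10 were lower, with a median of -0.36, and without C replicate 1 7 of 10 were lower, with a median of -0.23. Gbp11 read 7.63, 7.55 and 7.14 in C, 7.24, 6.90 and 6.89 in C + P, 5.42, 6.81 and 6.23 in D and 6.89, 6.71 and 6.94 in D + P. C and D did not overlap, and Gbp11 was 1.29 lower in D (SE 0.30, limma adjusted p 0.265). Over the alternatives tried this difference ranged from -1.61 to -0.66, with adjusted p between 0.0827 and 0.738. Its interaction was 1.12 (SE 0.43, adjusted p 0.683), beside 1.09 for Gbp3 and 1.02 for Gbp4. Gbp4 was 0.74 lower in D than in C and 0.69 lower in C + P than in C, the latter without overlap. Gbp5 differed by -0.38 in D versus C and by 0.65 in D + P versus D, and Gbp2 by -0.40 and 0.30. Without D replicate 1 those of Gbp2 were -0.23 and 0.14, and without D replicate 3 those of Gbp5 were -0.11 and 0.38.

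Among the other Ifi genes, Ifi44 read 5.55, 6.27 and 6.29 in C, 6.76, 7.06 and 7.04 in C + P, 6.33, 5.78 and 6.88 in D and 7.05, 7.43 and 7.28 in D + P. Both pargyline groups lay above their counterparts without overlap, by 0.92 in C + P versus C (SE 0.29, limma adjusted p 0.946) and by 0.92 in D + P versus D (adjusted p 0.238), and slide cannot be told apart from pargyline here. Ifi205, a member of the family of cytosolic DNA sensors, was 0.41 lower in D + P mice than in C + P mice (SE 0.19, adjusted p 0.665) without overlap. Ifih1, the RNA sensor MDA5, differed by 0.31 in D versus C and by 0.06 in D + P versus C + P, and on its other probe by -0.43 and -0.45. Ifi27, Ifi35 and Ifi30, the last a lysosomal thiol reductase of antigen processing, differed by -0.07, 0.20 and -0.05 in D versus C and by -0.04, 0.08 and -0.06 in D + P versus C + P.

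**Figure D4:**
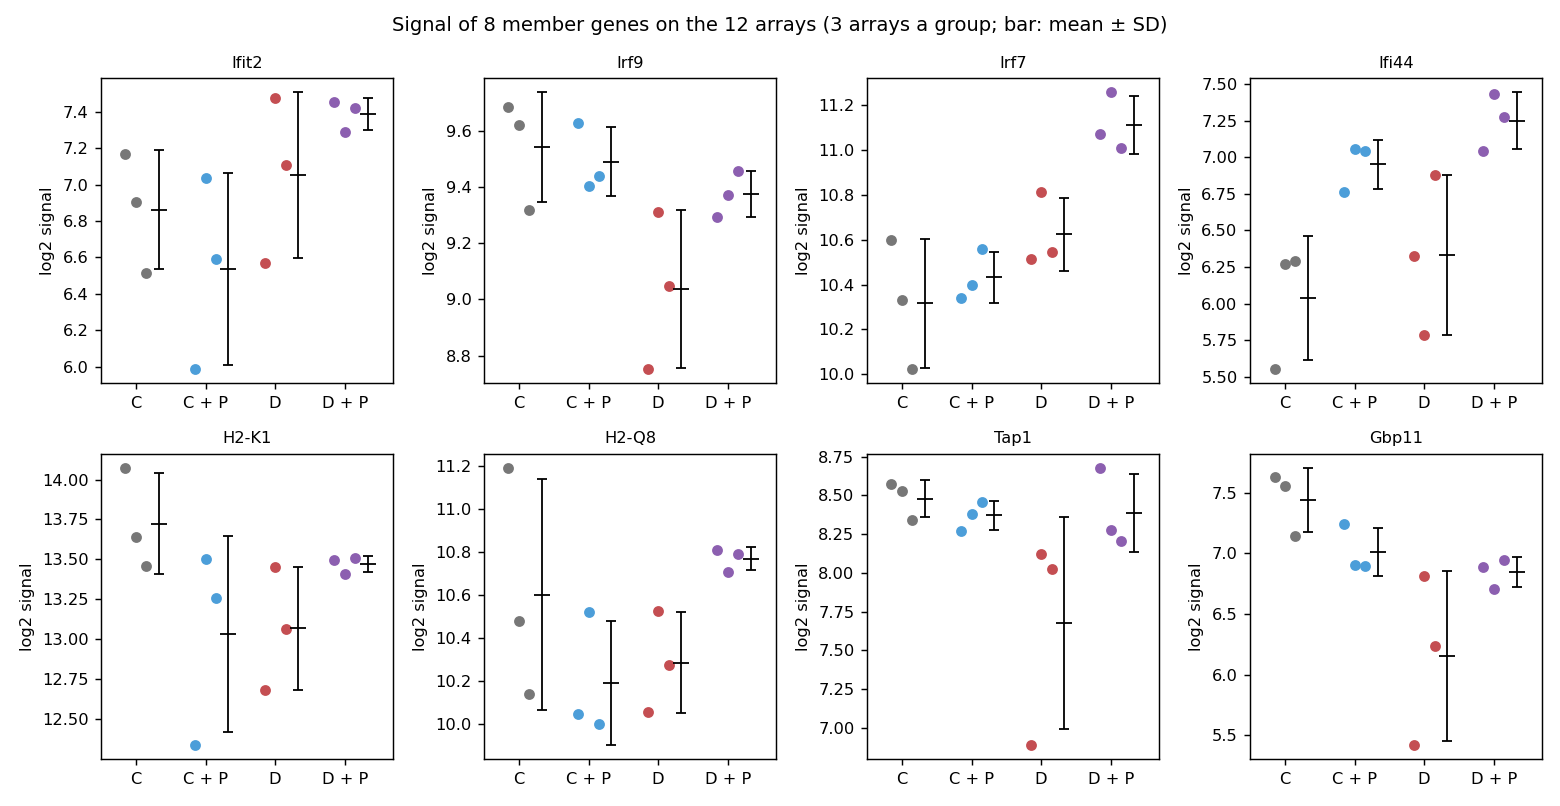
Log2 signal of 8 members on each of the 12 arrays, with points for arrays and bars for mean ± SD of 3; each panel has its own scale, which does not start at 0. Irf7 is highest on the 3 D + P arrays, and D replicate 1 is the lowest point for Tap1 and Gbp11.

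The 23 genes without sufficient signal in every group were H2-Ea-ps, H2-Eb2, H2-M1, H2-M10.1, H2-M10.2, H2-M10.3, H2-M10.4, H2-M10.5, H2-M10.6, H2-M5, H2-M9, H2-Oa, H2-Q1, H2-T18, Gbp2b, Ifi202b, Ifi44l, Ifitm5, Irf4, Oas1e, Oas1g, Oas1h and Oas3. Of the 81 tested genes, 61 were well above background on all 12 arrays and 3 on none. For 28 genes with several tested probes, all probes of a gene gave 1 direction for 15 in D versus C and for 17 in D + P versus C + P.

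A list of interferon pathway genes outside the rule, from receptors to effectors, had 36 of 43 genes tested, and none passed an adjusted p of 0.05 in limma. The interferon genes Ifnb1 and Ifng were well above background on no array, while the receptor genes Ifnar1, Ifnar2, Ifngr1 and Ifngr2 were on all 12. In D versus C 14 of the 36 were higher and 22 lower. Their mean level, centred by gene, was 0.19, 0.02 and -0.04 on the C arrays and -0.11, 0.01 and -0.10 on the D arrays. At an unadjusted p under 0.05, 4 genes were lower and 0 higher in D versus C, against 4.86% of all genes lower and 5.33% higher. In D + P versus C + P 3 were higher and 0 lower (3.7% and 4.16% of all genes), and in D + P versus D 7 were higher and 2 lower (5.58% and 6.47%). In C + P versus C 0 were higher and 4 lower (2.04% and 2.34%): Eif2ak2, Zbp1, Igtp and Irgm2. Those lower in D than in C were Eif2ak2, the RNA-dependent kinase PKR (-0.62), the interferon-inducible GTPases Igtp (-0.76) and Irgm2 (-0.47), and Trim30a (-0.98). Trim30a was 0.99 and Mx2, an antiviral GTPase, 0.97 higher in D + P than in D. Of a list of 18 further antigen presentation genes 17 were tested. In D versus C 3 were lower and 0 higher at an unadjusted p under 0.05, against 4.86% and 5.33% of all genes: Nlrc5 (-0.68), a transactivator of class I genes, Ciita (-0.48), the transactivator of class II genes, and Tapbp (-0.37), which bridges class I to the peptide transporter. Over the whole list 8 of the 17 were higher in D than in C and 9 were lower. The mean of the 17, each centred on its mean over all arrays, was 0.28, 0.08 and -0.03 on the C arrays. On the D arrays it was -0.33, 0.05 and 0.02, so D replicate 1 lay far below the others. In D + P versus C + P 0 of the 17 reached an unadjusted p under 0.05.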

How the data were processed

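Total RNA of heart muscle from 12 mice (4 groups of 3) was hybridised by the authors to single-channel Agilent arrays. The deposited scanner files give spot intensity on a linear scale, background-subtracted and detrended by Feature Extraction (version 12.0.0.7 in the file headers, which also name build mm9; the methods give another version), not normalised between arrays. The deposited series table holds intensity quantile-normalised by the authors, here used as an alternative.

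Signals were log2 transformed, outlier spots removed, arrays quantile normalised and repeated spots averaged. Probes positive and significant on at least 50% of arrays of every group were tested (30859 of 56605). All 12 arrays entered 1 limma fit with a mean per group (R 4.3.3, limma 3.58.1, two-sided, Benjamini-Hochberg over all tested probes, threshold 0.05, 8 residual and 2.62 prior degrees of freedom). Each gene is given by its brightest tested probe. Mice are the replicates, so p-values measure the spread between mice and arrays. The number of arrays limits precision. Bounds for genes dim in 1 group use the lowest signal well above background on each array. Named genes were a list by role, any member past the threshold, and per comparison the 3 largest differences in each direction among members at an unadjusted p under 0.05 whose groups did not overlap (overlap was not asked of the interaction). Results of some members are not reported here, though the counts include them. Members and lists were chosen with earlier results of these data known. Gene symbols are those of the array, 134 member probes matched RefSeq, and gene annotation of mm9 was not used here. The fit was tested on simulated data. Alternatives were other scaling, background correction, filters, the authors' table, array weights, replicate and slide blocks, any probe of a gene (for counts), the methods' t-test and leaving out each array.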

Additional observations from a re-analysis of the deposited data

How the results depend on the processing

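The count of MHC and of interferon-induced genes past the threshold was 0 in each comparison under every alternative tried, on the brightest probe of each gene. It was also 0 with the replicate number as a block, where the numbers did not pair the arrays (r between deviations of same-numbered arrays -0.20 to 0.20 over 18 pairs), while calls over all probes averaged over pargyline went from 33 to 4. Array weights took calls over all probes from 2 to 279 in D versus C, from 10 to 206 in C + P versus C, from 14 to 39 in D + P versus C + P, and from 33 to 348 averaged over pargyline. A filter met in at least 1 group gave 29 calls over all probes in D + P versus C + P and 12 in D + P versus D. Leaving out 1 array gave 3 to 116 averaged over pargyline, the most without D + P replicate 1. Leaving out each array in turn gave 0 to 0 member calls. On the same probe, the 28 differences chosen by size kept their direction under the 20 or 21 alternatives run for each. The other tested probe of a gene was not among these, and it gave the opposite direction for Irf2 (D + P versus D, -0.45 against 0.93, and interaction, -0.57 against 0.49) and for Oasl1 (D + P versus D, 0.64 against -0.08). Medians of the lists moved more. With 75th percentile scaling, normexp and array weights in turn, the MHC median was -0.13, -0.14 and -0.09 in D versus C (-0.22), 0.09, 0.11 and 0.07 in D + P versus D (0.22), -0.04, -0.01 and -0.06 averaged over pargyline (-0.10), and 0.34, 0.36 and 0.22 in the interaction (0.52). In C + P versus C (-0.23) it was -0.11 with normexp and -0.08 with array weights. Averaged over pargyline it was also -0.06 with the authors' table, with a filter met in at least 1 group and with values not positive and significant set to missing. The interferon-induced median in C + P versus C (0.08) was -0.02 with normexp, 0.02 with array weights and -0.09 without C replicate 3. It was 0.08 with array weights in D + P versus D (0.18), -0.02 with normexp averaged over pargyline (-0.10), and -0.02 with 75th percentile scaling and 0.00 with normexp in D + P versus C + P (-0.05). The interferon-induced interaction (0.14) was 0.09, 0.06 and 0.07 with the 3 settings named first and 0.02 with values set to missing. The causes were not tested. Signal over background limits 20 of the 81 tested genes, which were not well above background on every array.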
